A study of Caenorhabditis elegans with 4 samples.

Results

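miR-46-3p and miR-47-3p are the 2 listed members of one miRNA sequence family, and they were taken by name from the 66 mature miRNAs of the deposited table. miRNAs guide Argonaute proteins to target RNAs, which they recognize mainly through the seed, the bases near the 5′ end of the miRNA. Members of a family share this seed and can therefore pair to the same sites. In *Drosophila*, miR-281 carries the same seed.

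The study asked whether miRNAs associate preferentially with Argonaute-Like Gene 1 (ALG-1) or the related ALG-2, both of them miRNA-binding proteins of *C. elegans*, in adult animals. Each protein was pulled down by co-immunoprecipitation (co-IP), and the small RNAs bound to it were sequenced from whole worms at day 5 of adulthood, grown at 20°C without treatment, after eggs and larvae had been removed. ALG-1 was recovered from animals of the FLAG::GFP::ALG-1 strain PQ530 and ALG-2 from animals of the FLAG::RFP::ALG-2 strain PQ582, and an antibody against FLAG was used for both. Each strain gave 2 libraries from populations of worms, named A and B below in the order of the table's columns. The proteins carried different fluorescent tags, so that tag and Argonaute cannot be told apart. Neither input RNA nor a co-IP from untagged worms was analysed here, and no background could be subtracted.

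The libraries rested on 11625117 and 6428905 reads for ALG-1 and on 12401622 and 25703472 reads for ALG-2. The values are reads per 1000000 reads of the library (RPM). The 66 miRNAs made up 99.3% to 99.5% of each library, so a rise of an abundant miRNA lowers the RPM of every other one. The ALG-1 libraries were more alike than the ALG-2 libraries, as the median absolute log2 difference over the listed miRNAs was 0.34 between the ALG-1 libraries and 0.90 between the ALG-2 libraries.

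The genes of the pair lie on different chromosomes and are not part of a miRNA cluster. *mir-46* (WBGene00003274) is on chromosome III, at 13660515-13660611 of the WBcel235 assembly in the RefSeq annotation. It overlaps no protein-coding gene and lies between *set-16*, at a distance of 3877 bases, and *flp-15*, at 2788 bases. The non-coding RNA gene *ZK525.4* (III, 13660520-13660603) is annotated inside its span, and reads of the 2 genes cannot be told apart where they overlap on one strand. *mir-47* (WBGene00003275) is on chromosome X, at 13921250-13921346, and overlaps no other annotated gene. It lies between *ekl-5*, at a distance of 4079 bases, and *meg-2*, at 1296 bases. *alg-1* itself lies further along the same chromosome, 28142 bases from *mir-47*. The nearest gene with a listed mature miRNA is *mir-86* for *mir-46*, at 1723780 bases, and *mir-54* for *mir-47*, at 776155 bases.

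Both miRNAs were of moderate to low abundance in both co-IPs. Together they took 0.359% and 0.265% of the reads with ALG-1, compared to 0.240% and 0.136% with ALG-2. By the mean of the 4 libraries, miR-47-3p ranked 40 and miR-46-3p ranked 45 among the 66 miRNAs. For scale, miR-82-3p, the most abundant miRNA, reached 263234 and 325419 RPM in the ALG-1 libraries, compared to 74702 and 243645 RPM in those of ALG-2.

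miR-46-3p had 1441 and 1164 RPM in ALG-1 libraries A and B, compared to 1200 and 577 RPM in ALG-2 libraries A and B. The groups overlapped, since ALG-2 library A lay above ALG-1 library B. That step was small, and the 95% counting intervals (Wilson) of these 2 libraries met, at 1138 to 1191 RPM in ALG-1 library B and 1181 to 1219 RPM in ALG-2 library A. ALG-2 library B stood apart from the other 3 libraries, with an interval of 568 to 587 RPM. In rank, miR-46-3p was 42 and 43 in the ALG-1 libraries and 45 and 53 in the ALG-2 libraries.

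miR-47-3p had 2149 and 1483 RPM in ALG-1 libraries A and B, compared to 1196 and 782 RPM in ALG-2 libraries A and B. Both ALG-1 libraries were above both ALG-2 libraries. In the table as a whole, the groups did not overlap with ALG-1 higher for 18 of 66 miRNAs (27.3%), so this order was common. In rank, miR-47-3p was 38 and 40 in the ALG-1 libraries and 46 and 47 in the ALG-2 libraries. The reads behind a single value ranged from 7483 to 24982 for the 2 miRNAs, with a relative counting error of 0.633% to 1.16%. The differences between libraries of one co-IP were therefore much larger than counting error, which covers the sampling of reads only.

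**Figure D1:**
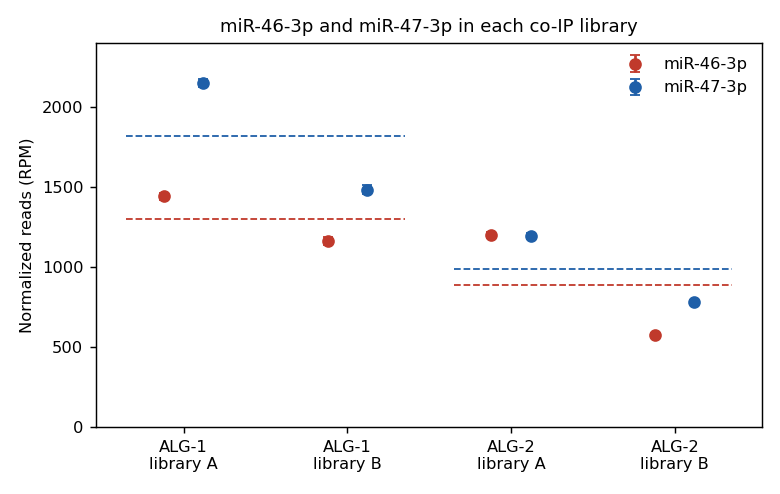
Normalized reads (RPM, vertical axis) of miR-46-3p (red) and miR-47-3p (blue) in each co-IP library, with Wilson 95% counting intervals that are mostly smaller than the points, and dashed lines for the mean of each co-IP. Both miRNAs were highest in ALG-1 library A (1441 and 2149 RPM) and lowest in ALG-2 library B (577 and 782 RPM).

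To ask if the pair associated preferentially with one Argonaute, the co-IPs were compared on the log2 scale. The mean of miR-47-3p was 1816 ± 471 RPM for ALG-1, compared to 989 ± 293 RPM for ALG-2 (SD, n = 2 each). The log2 ratio of ALG-1 over ALG-2 was 0.88 ± 0.56 (SE, limma adjusted p = 0.402). The mean of miR-46-3p was 1302 ± 196 RPM for ALG-1, compared to 889 ± 440 RPM for ALG-2 (SD, n = 2 each). On the log2 scale this was a ratio of 0.64 ± 0.60 (SE, limma adjusted p = 0.557). Neither difference passed the test at an adjusted p of 0.05. The difference in means of miR-47-3p exceeded the SD of either co-IP, whereas that of miR-46-3p was smaller than the SD of the ALG-2 co-IP. The 95% intervals of the log2 ratios were wide. They ran from -0.47 to 2.24 for miR-47-3p and from -0.83 to 2.10 for miR-46-3p, and so included 0 as well as log2 ratios above 2. limma called 0 of 66 miRNAs (0%) higher with ALG-1 and 1 (1.52%) higher with ALG-2. Toward ALG-1, 7 of 66 (10.6%) had an unadjusted limma p below 0.05. Neither miR-46-3p nor miR-47-3p was among them. In whole animals, fewer cells of a type and less RNA per cell cannot be told apart, nor can binding and the places where each protein is expressed.

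In order of log2 ratio toward ALG-1, miR-47-3p was number 16 and miR-46-3p number 21 of the 66 miRNAs. The median over all miRNAs was 0.13, and 36 of 66 (54.5%) had a ratio above 0. A positive ratio was therefore not particular to the pair. As a sum, the pair had 3590 and 2647 RPM in ALG-1 libraries A and B, compared to 2396 and 1359 RPM in ALG-2 libraries A and B. If no read was counted for both, this sum does not depend on how reads were divided between the 2 sequences. Both ALG-1 sums were above both ALG-2 sums, and the log2 ratio was 0.77, with an SD between libraries of 0.31 for ALG-1 and 0.58 for ALG-2. The exact two-sided permutation test gave p = 0.333, the smallest value that 2 libraries against 2 allow.

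The study called a miRNA enriched when it differed by more than 1.5-fold in independent replicates. The column names state no replicate number. The numbers they begin with are consecutive within each pair in column order, but the labels do not say what these numbers stand for. Each ALG-1 library was therefore divided by each ALG-2 library, which gives 4 ratios. For miR-47-3p, ALG-1 library A was 1.80 times ALG-2 library A and 2.75 times ALG-2 library B, and ALG-1 library B was 1.24 and 1.90 times these libraries. It exceeded 1.5-fold in 3 of the 4 ratios and thus did not pass in all, as 9 of 66 miRNAs (13.6%) did toward ALG-1 and 11 (16.7%) toward ALG-2. For miR-46-3p, ALG-1 library A was 1.20 times ALG-2 library A and 2.50 times ALG-2 library B, and ALG-1 library B was 0.970 and 2.02 times these libraries. It exceeded 1.5-fold in 2 of the 4 ratios, both of them against ALG-2 library B.

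The pairing decided the call for miR-47-3p. With libraries paired in column order its ratios were 1.80 and 1.90, and it was 1 of 12 miRNAs of 66 (18.2%) that passed toward ALG-1. With crossed pairs they were 2.75 and 1.24, and it was not among the 11 of 66 (16.7%) that passed. miR-46-3p passed under neither pairing. By the ratio of the means of the co-IPs, 17 of 66 miRNAs (25.8%) exceeded 1.5-fold toward ALG-1. miR-47-3p was one of them, at 1.84, and miR-46-3p fell short at 1.47.

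**Figure D2:**
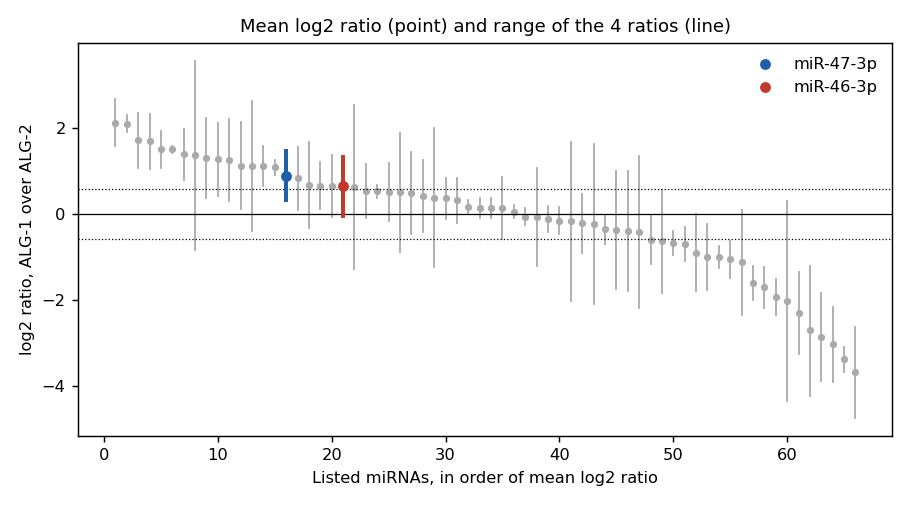
log2 ratio of ALG-1 over ALG-2 (vertical axis) for the 66 miRNAs in order of their mean log2 ratio (horizontal axis), with points for the mean, lines for the range of the 4 ratios between libraries, and dotted lines at 1.5-fold in either direction. miR-47-3p (blue) and miR-46-3p (red) are number 16 and 21, and the line of miR-46-3p crosses 0.

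The outcome of this rule also depended on single libraries and on the miRNAs to which the libraries were scaled. Leaving out a library leaves fewer ratios, so the rule is easier to pass. Without ALG-2 library A, both members were among the 18 of 66 miRNAs over 1.5-fold toward ALG-1 in each remaining ratio. Their log2 ratios became 1.16 for miR-46-3p and 1.19 for miR-47-3p. Without ALG-2 library B, 18 of 66 passed and neither member was among them, and the log2 ratios became 0.11 and 0.58. miR-47-3p was also among the 14 of 66 that passed without ALG-1 library B. The share of the miR-35 family averaged 4.51% in ALG-1 libraries, compared to 20.3% in ALG-2 libraries. After rescaling without this family, the lowest ratio of miR-47-3p was 0.952, so that its groups overlapped. When miR-82-3p was left out instead, the lowest ratio of miR-47-3p was 1.70. It passed in all 4 ratios, as 1 of 10 miRNAs of 65 toward ALG-1. The lowest ratio of miR-46-3p was 1.004 after median-of-ratios scaling, which just parted its groups, and 1.33 without miR-82-3p. It was 0.980 after TMM scaling and 0.744 without the miR-35 family, so that its groups overlapped in both.

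The 2 miRNAs were next compared to each other within each library, a ratio that scaling cannot move. miR-47-3p made up 59.9% and 56.0% of the pair's reads in ALG-1 libraries A and B, compared to 49.9% and 57.5% in ALG-2 libraries A and B. It was the more abundant member in 3 of the 4 libraries. In ALG-2 library A the members were equal within counting error, with 14831 reads for miR-47-3p and 14881 for miR-46-3p, and the exact 95% interval of the miR-47-3p share was 49.3% to 50.5%. In the other libraries the intervals were 59.4% to 60.3% for ALG-1 library A, 55.3% to 56.8% for ALG-1 library B and 57.0% to 58.0% for ALG-2 library B, all above an equal share. The share in ALG-2 library B lay between those of the ALG-1 libraries.

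**Figure D3:**
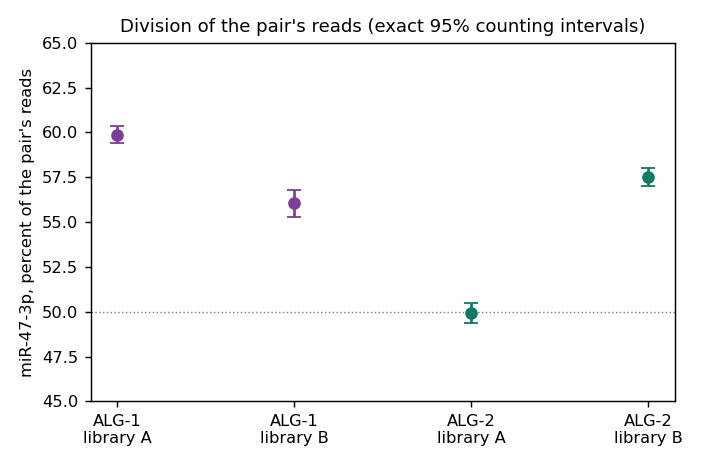
Share of miR-47-3p in the reads of the pair (percent, vertical axis, which starts at 45) in each library, with exact 95% counting intervals and a dotted line at an equal share. ALG-2 library A sits at 49.9%, and the other 3 libraries sit between 56.0% and 59.9%.

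The log2 ratio of miR-47-3p over miR-46-3p averaged 0.46 ± 0.16 with ALG-1 and 0.22 ± 0.31 with ALG-2 (SD, n = 2 each). The difference of 0.25 between the co-IPs, which is also the difference between the ALG-1 over ALG-2 ratios of the members, was no larger than the spread between libraries (exact two-sided permutation p = 0.667, where 0.333 is the smallest possible). Without ALG-2 library A it was 0.026, and without ALG-2 library B it was 0.47. The higher ratio of miR-47-3p than of miR-46-3p thus rested on ALG-2 library A. How closely related reads were divided between the members depends on the mismatches allowed in mapping, a setting not given in the sources used here.

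Whether both members moved together was followed over the libraries. Within the ALG-1 co-IP, library A was above library B by 0.31 for miR-46-3p and 0.53 for miR-47-3p on the log2 scale. Within the ALG-2 co-IP, library A was above library B by 1.05 for miR-46-3p and 0.61 for miR-47-3p. The members thus differed in the same direction within each co-IP, miR-47-3p more so with ALG-1 and miR-46-3p more so with ALG-2. This direction was shared by 43 of 66 miRNAs (65.2%) in the ALG-1 libraries and 35 of 66 (53.0%) in the ALG-2 libraries, and by 22 of 66 (33.3%) in both. All members share the scaling of their library.

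**Figure D4:**
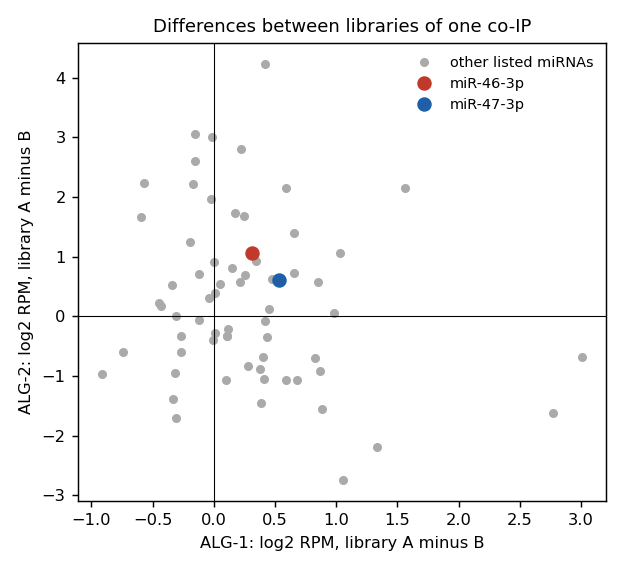
Difference in log2(RPM + 1) between libraries A and B of the ALG-1 co-IP (horizontal axis) and of the ALG-2 co-IP (vertical axis) for each of the 66 miRNAs. miR-46-3p (red; 0.31 and 1.05) and miR-47-3p (blue; 0.53 and 0.61) are both above 0 on each axis, with 20 other miRNAs.

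As a measure of likeness, the log2 values of each miRNA were centred on their mean over the 4 libraries, and the Euclidean distance between 2 such profiles was taken. miR-46-3p and miR-47-3p were 0.43 apart, compared to a median of 1.96 over all 2145 pairs of listed miRNAs, and 40 of these pairs (1.86%) were closer. Reads counted for both members would draw their profiles together, and whether any were was not tested. Without ALG-2 library A the distance was 0.16, so this library held most of what set the members apart. By name, from general knowledge, 36 of the listed miRNAs were placed in 10 families. Shared seeds were not checked, so a group such as miR-61-3p and miR-250-3p may hold unlike seeds, and relatives may stand in separate groups. The 58 pairs within the other 9 families had a median distance of 1.75, and 4 of them (6.90%) were closer than miR-46-3p and miR-47-3p. These 4 include miR-44-3p and miR-45-3p, which were listed with the same values, so their distance of 0 follows from the listing and is not a measured likeness. Next came miR-35-3p and miR-39-3p (0.20), and miR-55-3p and miR-56-3p (0.35). The farthest all involved miR-51-5p, with distances of 3.86 to miR-52-5p, 4.43 to miR-53-5p and 5.18 to miR-54-3p. The log2 ratios of ALG-1 over ALG-2 differed by 0.25 within the pair, by a median of 0.75 within the other families and by a median of 1.17 over all pairs.

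The miRNA nearest in profile to both members was miR-71-5p, which promotes longevity in *C. elegans* and belongs to another family. It was at a distance of 0.23 from miR-47-3p and 0.32 from miR-46-3p, closer to each than they were to each other. It had 27329 and 19692 RPM in the ALG-1 libraries and 18332 and 11844 RPM in the ALG-2 libraries, the same order of libraries as for miR-47-3p. The next for miR-46-3p were miR-238-3p (0.38) and miR-50-5p (0.38), and for miR-46-3p its own family member came after these 3. The next for miR-47-3p, after miR-46-3p, were let-7-5p (0.49) and miR-48-5p (0.50), members of the let-7 family that controls developmental timing. Each was measured over the same 4 libraries, and a distance over so few is a description of these libraries only.

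**Figure D5:**
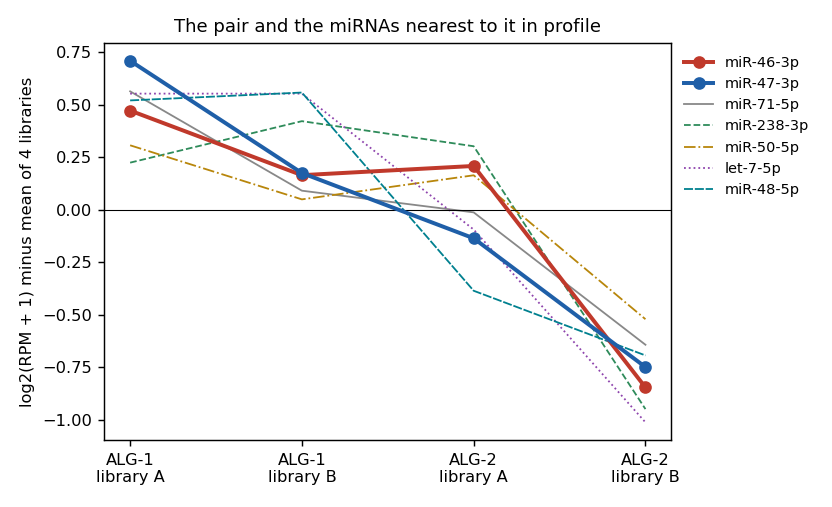
log2(RPM + 1) of each miRNA minus its mean over the 4 libraries (vertical axis), by library (horizontal axis), for miR-46-3p (red), miR-47-3p (blue) and the miRNAs nearest to them in profile. Lines join the values of one miRNA for reading only; miR-46-3p and miR-47-3p part most in ALG-2 library A, at 0.21 and -0.14.

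Of the 4 neighbours of the pair in mean RPM, miR-50-5p was also close in profile and the others were not. miR-50-5p, just above miR-46-3p in mean RPM, had 1343 and 1124 RPM in the ALG-1 libraries and 1217 and 756 RPM in the ALG-2 libraries. It was close to miR-46-3p in all but ALG-2 library B, where miR-46-3p was lower, at 577 RPM. miR-86-5p, just below miR-46-3p, reached 900 and 659 RPM in the ALG-1 libraries, compared to 1291 and 1190 RPM in those of ALG-2. It was lower in both ALG-1 libraries, as were 17 of 66 miRNAs (25.8%). Its distance from miR-46-3p was 1.48. Next to miR-47-3p were miR-60-3p above, at a distance of 1.53, and miR-239a-5p below, at 2.28. miR-60-3p had 3125 and 2362 RPM in the ALG-1 libraries and 495 and 799 RPM in the ALG-2 libraries, and its log2 ratio of 2.11 ± 0.55 (SE, limma adjusted p = 0.0840) compares with 0.88 for miR-47-3p. miR-60-3p passed the threshold with the replicate block of crossed pairs (limma adjusted p = 0.0271) and without miR-82-3p (limma adjusted p = 0.0413), whereas miR-47-3p did not under either. miR-239a-5p had 3624 and 529 RPM in the ALG-1 libraries and 308 and 947 RPM in the ALG-2 libraries, and its groups overlapped.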

How the data were processed

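The authors sequenced TruSeq small RNA libraries of the co-IPs from whole day 5 adults, 2 libraries for each Argonaute. The authors removed adapters (cutadapt is named in the submitters' processing notes), used miRDeep2, of a version not given in the sources used here, for mapping to WS261 and for counting reads of mature miRNAs in miRBase. The deposited values are RPM, which the authors scaled per 1000000 reads of each library. The authors left miRNAs below 1000 reads out of their comparison, and did not say if these were raw or normalized. The lowest sum over the 4 libraries listed here was 1003 RPM, which is not a count of raw reads. RPM give no depth, but all values of a column were whole multiples (tolerance 0.001 read) of one step, from which the reads of each library were recovered. They were used for counting intervals (Wilson or exact, 95%) and TMM weights only.

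Groups came from the sample titles. The column names give the Argonaute and a number that is consecutive within each pair in column order. They state no replicate number, so the labels do not settle the pairing. All 66 miRNAs were fitted on log2(RPM + 1) by limma 3.58.1 (R 4.3.3), using a variance trend, no block and Benjamini-Hochberg adjustment (threshold 0.05). Differences are ALG-1 minus ALG-2 on this scale, which slightly understates changes of low values. The pair's sum and within-library ratio were compared by exact permutation tests in Python 3.11.15. Scripts were tested on simulated data. Alternatives were other pseudocounts, scalings, minimums, blocks and leaving out each library.

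The miRNAs named besides the pair were, for each member, the 3 nearest profiles and the neighbours in mean RPM, the 3 closest and 3 farthest pairs within families, and the most abundant miRNA. The pair and these lists were chosen with earlier results of these data known. Families were assigned by name, because no mature sequences were used here. The study describes the libraries of a strain as independent experiments, and p-values measure the spread between these samples.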

Additional observations from a re-analysis of the deposited data

How the results depend on the processing

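For miR-46-3p and miR-47-3p, the direction and the lack of a limma call held in all 14 refits run for each. The log2 ratio of miR-46-3p ranged from 0.37 to 0.88 over 10 settings (limma adjusted p 0.342 to 0.796) and from 0.11 to 1.16 with a library left out, and that of miR-47-3p from 0.62 to 1.13 (limma adjusted p 0.210 to 0.605) and from 0.58 to 1.19. Among the 10 settings with all libraries, the lowest value came without the miR-35 family and the highest without miR-82-3p, and among those with a library left out, the lowest came without ALG-2 library B and the highest without ALG-2 library A. With a library left out, the remaining single library of a co-IP is assumed to vary like the others. The replicate block cannot change a log2 ratio. It gave limma adjusted p of 0.629 and 0.517 for miR-46-3p and miR-47-3p with pairs in column order, and of 0.646 and 0.416 with crossed pairs. Deviations from the group means correlated at -0.21 over miRNAs for column order and 0.21 for crossed pairs. The summed pair gave 0.51 to 1.02 over the scalings and pseudocounts and 0.36 to 1.18 with a library left out, and fitted in limma, an alternative chosen after seeing the data, it had an adjusted p of 0.467. The difference between co-IPs in log2 miR-47-3p over miR-46-3p ranged from 0.026 to 0.47 with a library left out, and the profile distance from 0.16 to 0.43, while other settings gave 0.43.

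Over all miRNAs, limma called 0 higher with ALG-1 and 1 higher with ALG-2. The replicate block gave 2 and 5 with crossed pairs, and 0 and 1 in column order. Leaving out miR-82-3p gave 3 and 5, and leaving out the miR-35 family gave 0 with ALG-2. The 1 miRNA called higher with ALG-2 above was miR-37-3p (limma adjusted p = 0.0264). It belongs to this family and was removed with it. With ALG-2, either scaling (median-of-ratios or TMM) gave 4, no variance trend gave 3, and leaving out a library 0 to 4. The 1.5-fold rule gave 9 toward ALG-1 and 11 toward ALG-2. With the ratio of group means these became 17 and 22. A minimum of 4000 RPM summed over the libraries, chosen after seeing the data, gave 5 toward ALG-1. Leaving out a library, which relaxes the rule, gave 12 to 18 and 11 to 18. For miR-239a-5p, leaving out a library gave log2 ratios between -0.028 (ALG-1 library A left out) and 2.74. The causes were not tested. The planned count model on recovered reads was not run, because the table lists no low values by which such reads can be checked. Depth limits none of these values.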
